A study of Schizosaccharomyces pombe with 16 samples.

Results

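The sense units raised in sen1Δ but not in rrp6Δ were 108 of the 2540 transcribed units that were read from a fission yeast tiling array, chosen by their measured ratios in 4 mutants. Sen1 is a nuclear RNA and DNA helicase of the same family as budding yeast Sen1, which acts in the termination of short non-coding transcripts there, and human senataxin. Rrp6 is the 3′ exonuclease of the nuclear exosome, the main RNA-degrading machine of the nucleus. Cid14 is the poly(A) polymerase of the TRAMP complex, and Pab2 is a nuclear poly(A)-binding protein that helps hand polyadenylated RNA to the exosome. Mtl1, Red1, Iss10 and Rmn1 are subunits or partners of MTREC, the complex around the helicase Mtl1 that directs meiotic mRNAs and unstable transcripts to the exosome, and Mmi1 is the YTH-domain protein that recognises meiotic mRNAs.

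RNA from 9 mutants of Schizosaccharomyces pombe was set against RNA from control strains on 16 arrays, 2 biological replicates for each mutant except rmn1Δ and mmi1Δ mei4-P572, which had 1. The RNA was depleted of ribosomal RNA and copied with oligo(dT) and random primers, and on every array the mutant was labelled with Cy5 and the control with Cy3. Dyes were not swapped, so any dye bias stays in each ratio. Both sen1Δ arrays compared strain p850 with the wild type p344, a pair from the same commercial deletion library with the same mating type (h+) and the same markers (leu1-32, ura4D18 and ade6-M210), in which sen1 is replaced by kanMX6 in p850, so both arrays describe 1 deletion strain. The other pairs were rrp6Δ (p74) with wild type p20, both h+ with leu1-32 and another ade6 allele, where p20 also carries otr1R(SphI)::ura4+, an insert beside a centromere; pab2Δ (p741) with p345, both h+ with leu1-32, ura4D18 and that same ade6 allele; cid14Δ (p938), red1Δ (p934), iss10Δ (p935) and rmn1Δ (p962) with p918, all homothallic (h90) with the markers of the sen1Δ pair; mtl1-17 (p936) with mtl1-flag (p931), both h90 with the same markers and a Flag tag on Mtl1; and mmi1Δ mei4-P572 (p984) with mei4-P572 (p983), both h-, where the shared mei4 allele lets cells live without Mmi1. Apart from rrp6Δ and its control each pair had the same auxotrophic markers, and every deletion was made with kanMX6. Cells were grown in rich YEA medium at 30 °C, and mtl1-17 and its control were moved from 23 to 37 °C for 4 h.

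Units were read from the 146999 densely tiled probes, whose numbers alternate between strands. The log2 control signal of each probe was averaged across all 16 arrays, a 5-probe running median was taken along the strand, and 6 or more consecutive probes at 7.885 or above made a unit. The unit's value on an array was the mean log2 ratio of mutant over control over its probes, less the mean over all units of that array. A unit was selected when its mean ratio was 0.5 or more in sen1Δ (at least 1.41-fold), below 0.3 in rrp6Δ, and higher in sen1Δ than in cid14Δ and pab2Δ. Of all units 217 (8.54%) reached 0.5 in sen1Δ, 121 of these were also below 0.3 in rrp6Δ, 113 of those were above their value in cid14Δ, and 108 remained after pab2Δ. The ratios in these 4 mutants therefore chose the units, and everything said of them in sen1Δ, rrp6Δ, cid14Δ and pab2Δ is a description without a test. The files and tables used here pair no probe with a gene or a sequence, so units are named by their first and last probe number.

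Of the 174063 tiling probes on an array 49.1 to 84.7% exceeded the scanner's background limit, depending on array and channel, and 0 were saturated. For the probes of the selected units this share was 95.8 to 99.3% on the sen1Δ arrays. Each sen1Δ array was alone on its slide, so slide and sen1Δ cannot be told apart. The single mmi1Δ mei4-P572 array was also alone on its slide, so that mutant and its slide cannot be told apart either. As a check of the label, stretches of 3 or more consecutive probes that were lost (log2 ratio under -2) on both sen1Δ arrays and on no other array were searched over the whole tiling. There were 2, and the longer, probes 164627 to 164643 (9 probes, in the sparsely tiled part), had mean log2 ratios of -4.41 and -7.01 on the sen1Δ arrays, against -0.27 or more on every other array. The shorter, probes 91226 to 91230 (3 probes), had -2.71 and -2.29, against -0.54 or more on every other array. It lies in unit 91168–91272, at -1.3 in sen1Δ, which overlaps the selected unit 91235–91341 of the other strand. The genes under these runs are not named in the files.

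The ratio of the selected units in sen1Δ had a median of 0.68 (SD of the medians of both arrays 0.18, n = 2), a 1.60-fold difference, against -0.01 over all units. It ran from 0.50 to 2.89, with 66 units below 0.75, 21 at 1 or more and 3 at 2 or more, so the group held few large differences and many small ones. The arrays differed in size: the median was 0.84 on replicate 1 and 0.59 on replicate 2, and 76 of the 108 units were higher on replicate 1. Of the 108 units 106 were above 0 on both arrays, but only 56 reached 0.5 on both, and 40 differed by more than 0.5 between the arrays. The exceptions to the common sign were unit 17006–17034, at 1.33 and -0.10, and unit 119808–119872, at -0.23 and 1.30. Over all 2540 units the sen1Δ arrays correlated with r = 0.59, a description across units that share the arrays and not a test across samples.

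**Figure D1:**
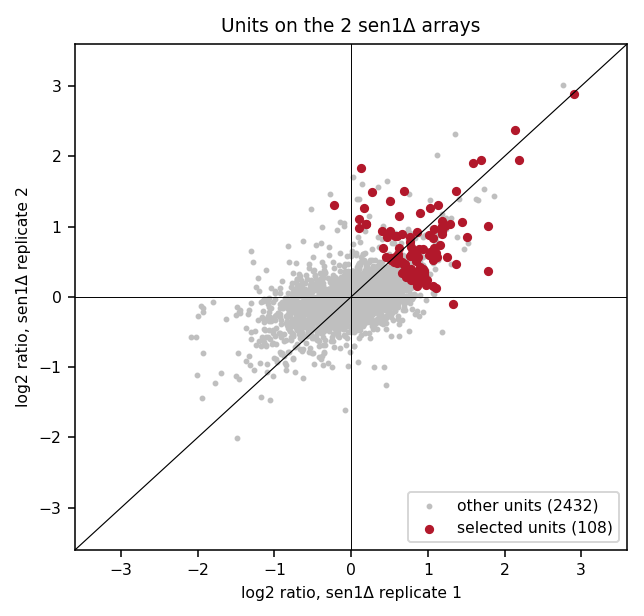
Mean log2 ratio of each unit on sen1Δ replicate 1 (x axis) and sen1Δ replicate 2 (y axis), with the 108 selected units in red and the other units in grey; the diagonal marks equal ratios, and 2 units lie outside the axes. All but 2 of the selected units lie above 0 on both arrays, and more of them lie below the diagonal than above it.

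The units with the highest ratios were close on both arrays. Unit 29512–29522, a short unit of 6 probes, had log2 ratios of 2.91 and 2.88 in sen1Δ, 7.42-fold on average. This unit was also raised in cid14Δ, at 2.39 and 1.79, a mean below that in sen1Δ, and in rrp6Δ it was at -0.29 and -0.62. Next in rank were unit 113438–113464 on the even-numbered strand, at 2.14 and 2.37, and unit 113651–113733 on the odd-numbered strand, at 2.19 and 1.95. The probe numbers of these units are 187 apart, but whether they lie close together on a chromosome was not tested. Both were low in pab2Δ, where the ratios were -2.68 and -2.37 for the first and -2.75 and -2.45 for the second. Unit 120238–120254, the dimmest of the selected units with a mean log2 control signal of 7.43, had ratios of 1.69 and 1.95. In another mutant its replicates lay far apart, at -1.29 and 2.54 in iss10Δ.

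Ranks 5 to 20 among the units at 0.5 or more on both arrays had mean ratios of 1.75 down to 1.02. Unit 39256–39316, 31 probes long, was at 1.59 and 1.91. Unit 91235–91341, 54 probes long, was at 1.37 and 1.51, and in cid14Δ it lay nearly as high, at 0.98 and 1.63. Unit 8540–8572 was at 1.78 and 1.01, and unit 2257–2283 at 1.45 and 1.07. The opposite direction in other mutants was marked for the latter, which had -2.82 and -2.21 in cid14Δ and -1.79 and -1.51 in pab2Δ. The brightest units among the first 20 were 18875–18929, at 1.51 and 0.85 with a control signal of 13.3, 57924–58004, at 1.18 and 1.08 with 13.1, and 122701–122771, at 1.18 and 0.94. Units 107123–107181, at 1.18 and 1.01, and 132705–132775, at 1.23 and 1.01, stood near 0 in the other mutants, with means between -0.30 and 0.48.

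At the sen1Δ and rrp6Δ thresholds units lay close on either side, while the units that failed against cid14Δ or pab2Δ did so by a wider margin. Just inside the sen1Δ threshold were units 126034–126054, 36651–36687 and 143957–143975, at 0.502, 0.505 and 0.506, and just outside were 52904–52944, 128026–128082 and 64213–64309, at 0.499, 0.490 and 0.490. Just inside the rrp6Δ threshold were units 96598–96732, 306–332 and 143957–143975, at 0.295, 0.290 and 0.249, and just outside were 61801–61965, 44299–44377 and 133622–133638, at 0.302, 0.303 and 0.311. Units 126034–126054, 306–332 and 63074–63088 exceeded their cid14Δ value by 0.0003, 0.0076 and 0.016, whereas 68113–68141, 32164–32174 and 4567–4593 fell short of it by 0.318, 0.374 and 0.436 (differences of -0.318, -0.374 and -0.436). For pab2Δ the closest units inside were 143957–143975, 143931–143947 and 97176–97210, with differences of 0.073, 0.088 and 0.20, and outside were 123733–123745, 8263–8309 and 95811–95827, with -0.299, -0.474 and -0.495.

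A ratio can rise through a higher mutant signal or a lower control signal, so both channels were followed across the arrays after each channel was centred on its mean over units. In the mutant channel the median of the selected units was 0.49 and 0.69 on the sen1Δ arrays, above its range of -0.57 to -0.09 on the other 14 arrays. In the control channel it was -0.38 and -0.10 on the sen1Δ arrays, inside its range of -0.42 to 0.13 on the others. Unit by unit, the sen1Δ mutant signal exceeded the median of the other 14 mutant signals by a median of 0.85 (quartiles 0.29 and 1.42), while the sen1Δ control signal lay below the median of the other controls by a median of 0.17 (a shift of -0.17, quartiles -0.55 and 0.26). Over all units these median shifts were 0.02 in the mutant channel and -0.08 in the control channel. The sum of both shifts was above 0 in 75 of 108 units, and in 1240 of all 2540 units. The sen1Δ control signal lay above the median of the other controls in 46 of the 108 units (1180 of all units). The sen1Δ mutant signal lay below the median of the other mutant signals in 11 (1246 of all units). Both sen1Δ mutant signals lay above all 14 others in 43 of the 108 units (9.96% of all 2540 units). Both control signals lay below all 14 others in 10 (9.84% of all units). As the ratio chose the units, nothing is read from these counts and shares.

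**Figure D2:**
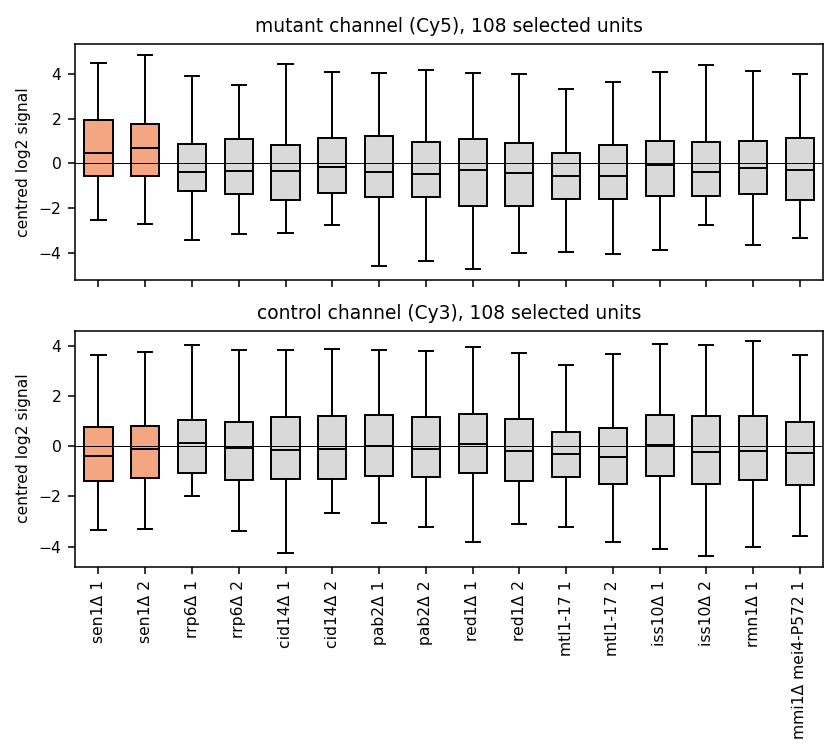
Centred log2 signal of the 108 selected units in the mutant channel (upper panel) and the control channel (lower panel) on each of the 16 arrays, sen1Δ in orange; boxes show the quartiles with the median as a line, and whiskers reach to 1.5 times the box height, with values beyond them not drawn. The sen1Δ medians stand above the other 14 arrays in the upper panel, at 0.49 and 0.69, and within them in the lower panel.

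Single units showed either pattern, and these examples were chosen after their values were seen. For unit 113651–113733 the mutant signal was 2.07 and 1.98 on the sen1Δ arrays and at most 0.06 on the other 14 arrays, and its control signal, at -0.12 and 0.03, lay within the range of -2.43 to 0.56. For unit 18875–18929 the mutant signal was 4.48 and 4.03 against at most 3.42, with control signals of 2.97 and 3.17 within 1.93 to 3.57. In contrast, unit 97176–97210, with ratios of 0.95 and 0.31, was low in both channels, with mutant signals of 1.12 and 0.81 (0.86 to 2.00 on the other arrays, median 1.69) and control signals of 0.17 and 0.50 (1.03 to 1.95, median 1.60). For unit 114051–114071, with ratios of 0.69 and 1.51, the control signals were -3.23 and -2.08 (-3.02 to 0.12 on the other arrays, median -1.47) and the mutant signals -2.53 and -0.57 (-2.84 to 0.51, median -1.21), so both channels were below the median on replicate 1 and only the control on replicate 2. The sen1Δ control strain was used on no other array, and its part in such cases was not tested.

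In the 3 other mutants of the rule the medians of the selected units were below 0. The median was -0.15 in rrp6Δ, -0.13 in cid14Δ and -0.22 in pab2Δ, against -0.06, -0.01 and -0.08 over all units. Of the 108 units 19 were at -0.5 or less in rrp6Δ, 23 in cid14Δ and 24 in pab2Δ (of all units 18.5%, 8.39% and 7.91%). In cid14Δ 15 of the 108 units still reached 0.5 (9.02% of all units), and these were often short, with a median of 11 probes. In pab2Δ 2 units did so (13.2% of all units). The unit lowest in pab2Δ was 3515–3537, at 0.66 and 0.89 in sen1Δ, -2.69 and -1.90 in rrp6Δ and -4.31 and -4.41 in pab2Δ. The unit lowest in rrp6Δ was 2523–2579, at 0.98 and 0.17 in sen1Δ, with -3.54 and -3.30 in rrp6Δ and -3.39 and -3.21 in pab2Δ.

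**Figure D3:**
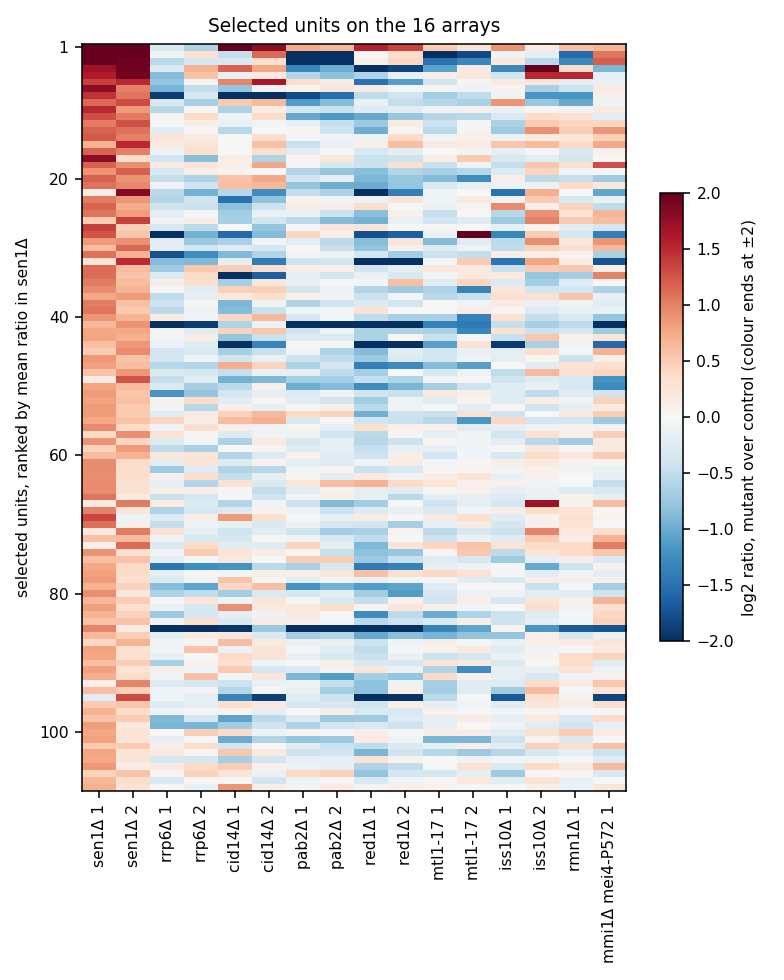
Log2 ratio, mutant over control, of the 108 selected units (rows, ranked by mean ratio in sen1Δ) on the 16 arrays (columns); red is higher in the mutant, blue lower, and the colour ends at ±2. The sen1Δ columns are red by the rule except for the single arrays of units 17006 and 119808, and blue rows recur in rrp6Δ, pab2Δ and red1Δ.

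The remaining 5 mutants did not enter the rule, and here each unit was tested with limma over all 9147 features, units and their flanking and antisense stretches, with Benjamini-Hochberg adjustment. In red1Δ 37 of the 108 units were called lower (17.4% of all units) and 3 higher (18.9% of all units), at an adjusted p under 0.05. The called-lower share among the selected units was 34.3%, and it was 21.2% among the 1871 units that met the rrp6Δ ceiling. The median ratio was -0.35, at -0.505 and -0.185 on the arrays (SD 0.23), against -0.05 over all units. By size, 36 units were at -0.5 or less (14.9% of all units) and 2 at 0.5 or more (15.8% of all units). The units called lower were led by unit 3515–3537, at -4.03 and -3.96 (mean -4.00 ± 0.18 SE, adjusted p = 5.25e-09). Unit 2523–2579 was at -2.99 and -3.08 (adjusted p = 1.65e-06), unit 101333–101369 at -1.36 and -1.28 (adjusted p = 3.34e-06), unit 120004–120034 at -3.10 and -2.33 (adjusted p = 1.69e-05) and unit 103652–103756 at -1.12 and -1.05 (adjusted p = 4.34e-05). These 5 units had opposite signs in sen1Δ and red1Δ on every array. The rule set the sign of the sen1Δ mean, and listing lower calls set that of red1Δ, so nothing is read from the opposition.

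The unit with the highest ratio in sen1Δ was also the one called most clearly higher in red1Δ. Unit 29512–29522 was at 1.56 and 1.35 in red1Δ (mean 1.45 ± 0.185 SE, adjusted p = 2.29e-05), and it lay between 0.16 and 0.90 on the mtl1-17, iss10Δ, rmn1Δ and mmi1Δ mei4-P572 arrays, where it was not called. The other units called higher were 5898–5962, at 0.59 and 0.33, and 97176–97210, at 0.69 and 0.40. Both lost the call when either red1Δ array was left out, and unit 5898–5962 was at 0.10 when the median over probes replaced the mean. Fitting each slide as a fixed effect, with 1 residual degree of freedom left, 19 of the 108 units were called lower in red1Δ (5.35% of all units). Without red1Δ replicate 1 it was 17 (6.26% of all units).

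In mtl1-17 20 of the 108 units were called lower (5.47% of all units) and 0 higher (5.75% of all units), with 2 higher at an unadjusted p under 0.05. The share called lower was 18.5%, against 6.04% of the 1871 units that met the rrp6Δ ceiling. The median of the selected units was -0.12, at -0.23 and -0.05 on the arrays, against 0.01 over all units. In mtl1-17 21 units were at -0.5 or less (5.43% of all units) and 1 was at 0.5 or more (4.8% of all units). Unit 3515–3537 led again, at -1.35 and -1.42 (adjusted p = 5.52e-05). Units 113438–113464, at -2.56 and -1.80 (adjusted p = 6.7e-05), and 113651–113733, at -1.50 and -1.31 (adjusted p = 9.73e-05), followed. Unit 101333–101369 was at -0.88 and -1.09 (adjusted p = 0.000106) and unit 141218–141230 at -0.87 and -1.24 (adjusted p = 0.000279). Unit 101333–101369 lost the call when each slide was a fixed effect (adjusted p = 0.086), under which 13 units were called lower (3.46% of all units). Without mtl1-17 replicate 1 the number called lower was 11 (2.6% of all units), and without replicate 2 it was 9 (1.81% of all units).

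**Figure D4:**
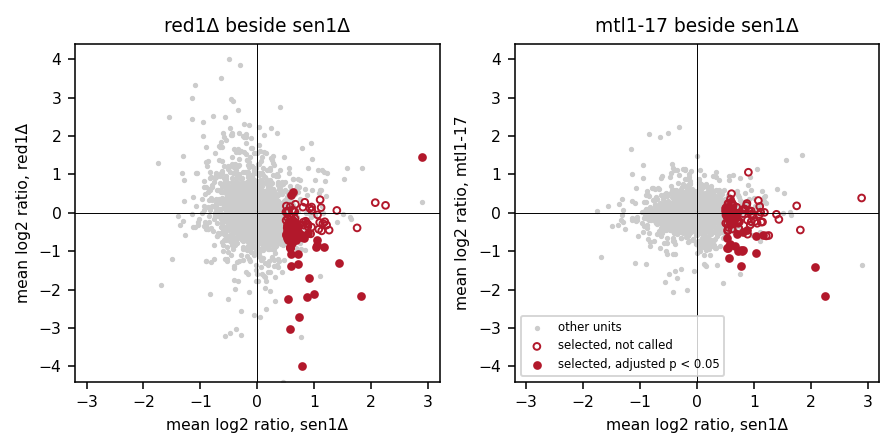
Mean log2 ratio in red1Δ (left) and mtl1-17 (right) against the mean log2 ratio in sen1Δ for each unit; selected units are red, filled where the adjusted p in red1Δ or mtl1-17 was under 0.05, and grey points are other units, of which 6 and 2 lie outside the axes. All filled points lie below 0 except 3 in red1Δ, and they reach down to -4.00 in red1Δ and -2.18 in mtl1-17.

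In iss10Δ 0 of the 108 units were called in either direction (1.3% of all units higher, 0.157% lower), and 4 were higher and 6 lower at an unadjusted p under 0.05. The iss10Δ arrays differed in sign for the group, with medians of -0.21 and 0.10, and 6 units had means of 0.5 or more (4.25% of all units) and 6 of -0.5 or less (1.73% of all units). In rmn1Δ, with its single array taken to vary like the others, 1 unit was called lower (0.157% of all units) and 0 higher (0.709% of all units; 3 at an unadjusted p under 0.05). That unit was 113651–113733, at -1.29 (adjusted p = 0.0315), and it was no longer called under 4 of the alternatives. By size, 6 units were at 0.5 or more in rmn1Δ (5.79% of all units) and 8 at -0.5 or less (4.06% of all units). With each slide as a fixed effect 7 units were called lower in rmn1Δ (2.24% of all units). In mmi1Δ mei4-P572, also with 1 array whose error is taken wholly from the spread of the other mutants, 2 units were called higher (1.85% of all units) and 4 lower (3.19% of all units). Called higher were 122701–122771, at 1.29 (adjusted p = 0.0383), and 113651–113733, at 1.21 (adjusted p = 0.0185), and called lower were 3515–3537, at -2.28, 133127–133171, at -1.26, 4463–4485, at -1.20, and 2523–2579, at -1.72, with adjusted p between 9.87e-05 and 0.0242. Both higher calls, and that of unit 2523–2579, were lost under at least 1 alternative with adjusted p from 0.0502 to 0.204. With each slide as a fixed effect 18 units were called higher (10.3% of all units) and 16 lower (9.84% of all units), so the number of calls in this mutant depended on that term.

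Across the 8 other mutants 65 of the 108 units (60.2%) reached 0.5 in none, close to the 59.6% of all units, 37 (34.3%, against 21.9%) did so in 1, and 6 (5.56%, against 18.5%) in 2 or more. The 8 include rrp6Δ, where the rule kept every selected unit below 0.3, and cid14Δ and pab2Δ, where it kept them below their sen1Δ value. The rule thus set the counts over the 8 mutants in part, here and below, and nothing is read from their differences from all units. At the other end 39 units (36.1%) were at -0.5 or less in 2 or more other mutants, against 17.6% of all units, and 14 (13%, against 4.72%) were so in 4 or more. In all 8 other mutants 27 units (25%, against 35%) stayed within 0.5 of 0. Among the mutants outside the rule, the one in which most of the selected units also reached 0.5 was mmi1Δ mei4-P572, with 21 units (12.3% of all units), while 18 were at -0.5 or less there (12.2% of all units). The 21 units had a median length of 32 probes and rested on 1 mmi1Δ array. On the iss10Δ arrays the same 21 units went apart, 16 below 0 on replicate 1 and 18 above 0 on replicate 2, and in red1Δ their medians were -0.61 and 0.08.

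Sen1 acts at transcript ends in budding yeast, so the stretches around the units were read in sen1Δ as well. The odd-numbered strand was taken to run towards higher probe numbers and the even-numbered strand towards lower, because in rrp6Δ the sense flank was higher on those sides (means of 0.74 against 0.50 for odd units and 0.75 against 0.52 for even units). A downstream flank was up to 7 probes of the unit's strand after its end, and at least 3, stopping at the next unit. Such flanks were found for 101 of the 108 units. Their median ratio in sen1Δ was 0.53, at 0.52 and 0.59 on the arrays, against 0.30 over 2427 flanks of all units. Of the 101 flanks 80 (79.2%) were above 0 on both arrays, against 66% of all flanks. The ratio fell with distance: the mean was 0.90 on the last probe of the units, 0.68 on the first probe after the end, 0.45 on the fourth and 0.33 on the tenth, against 0.19, 0.24, 0.28 and 0.26 over all units. Since signals outside units are dim and the same arrays chose the units, this is a description of where the higher ratio ended.

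**Figure D5:**
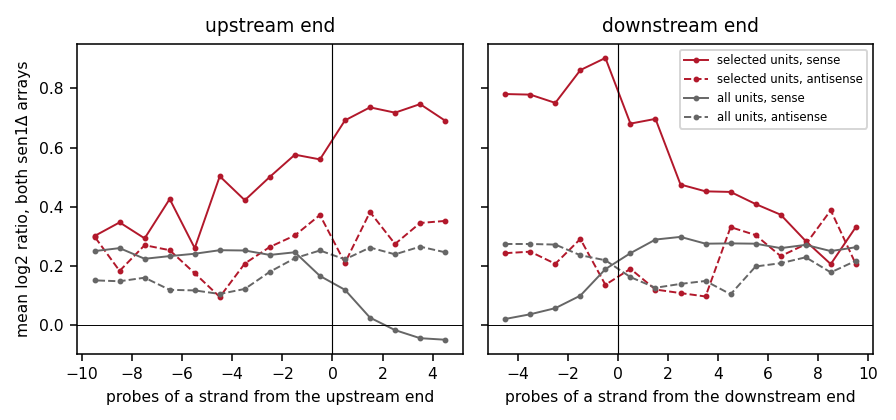
Mean log2 ratio of both sen1Δ arrays by probe position around the upstream end (left) and downstream end (right) of the units, in probes of a strand, 0 being the end; red lines are the selected units (at most 103 at a position), grey lines all units, solid the unit's strand and dashed the opposite strand. The solid red line is highest inside the units, at 0.90 on the last probe, and comes down to the level of the grey line about 8 probes beyond the downstream end.

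Single flanks varied widely: 29 of the 101 were at or above their unit's mean, and 9 were below 0. After unit 113651–113733 the 4 free probes had ratios of 3.2 and 3.05 in sen1Δ, above the unit's own 2.19 and 1.95. After unit 120238–120254 the flank was at 1.74 and 1.98, and after unit 8540–8572 at 1.16 and 1.45, both close to the units' values. After unit 5898–5962 it was at 1.59 and 1.37, while the unit itself was at 0.82 and 0.36. In the other direction, the flank after unit 29512–29522, the unit with the highest ratio, was at -0.63 and -1.51. Flanks were also below 0 after unit 133127–133171, at -1.34 and -1.11, and after unit 142018–142028, at -0.68 and -0.86. On the upstream side the sense probes were also higher than over all units, at 0.56 on the first probe before the start (all units 0.17) and 0.30 on the tenth (0.25). When units of at least 9 probes were cut into a first, a middle and a last part of equal length, the medians were 0.67, 0.71 and 0.72 (n = 97), and the last part was highest in 43 units, the middle in 28 and the first in 26. Over all units of that length the last part was highest in 1035 of 2207, the middle in 511 and the first in 661.

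On the opposite strand the medians lay closer to those over all units. Over 95 units with free antisense probes the median antisense ratio in sen1Δ was 0.33, at 0.29 and 0.30 on the arrays, against 0.27 over all units, and 26 reached 0.5 (27.4%, against 13.6% over all units). Of the downstream flanks 58 did so (57.4%, against 26.8%). The antisense stretch upstream of the start, where divergent transcripts would lie, had a median of 0.25 (78 units) against 0.20. Upstream antisense ratios depended on the scale: with each array centred on the median of all tiling probes the median was -0.0179. This centring moved the stretches of all units by the same amount. Unit 133069–133079 had the highest antisense ratio, at 0.50 and 1.63, followed by 122701–122771, at 0.71 and 1.12, and 127892–127942, at 0.73 and 0.96.

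In the mutants outside the rule the flanks could be tested. Downstream of the selected units 30 of 101 flanks were called higher in red1Δ (35.3% of all flanks) and 24 lower (11% of all flanks). In mtl1-17 31 were called higher (38.2% of all flanks) and 17 lower (5.03% of all flanks). Upstream antisense stretches were called higher in 27 of 78 cases in red1Δ (46.4% of all such stretches) and lower in 17 (9.67%), and in mtl1-17 in 21 (38.5%) and 17 (7.06%). Antisense stretches were called higher in 18 of 95 cases in red1Δ (25.9%) and lower in 32 (17.8%), and in mtl1-17 in 18 (23.8%) and 16 (7.01%). Among the stretches of units that met the rrp6Δ ceiling, the shares called higher and lower in red1Δ were 32.5 and 11.9% downstream, 48.5 and 8.96% upstream antisense and 27.2 and 17.7% antisense. In mtl1-17 they were 37.1 and 5.52%, 40.8 and 6.12%, and 25.7 and 6.4%. The differences between the selected units and these backgrounds were not tested.

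The selected units were spread over the array and both strands, with 54 on each. They had a median of 19.5 probes (6 to 68), against 20 (6 to 178) over all units, and mean log2 control signals of 7.43 to 14.1. The dimmest 635 of all units gave 38 of them (5.98%) and the next 635 gave 16 (2.52%). The longest was unit 96598–96732, with 68 probes and ratios of 0.86 and 0.15, and the brightest was unit 63074–63088, at 0.82 and 0.33. Besides unit 29512–29522, the shortest, with 6 probes, were 279–289, at 1.13 and 1.30, 11848–11858, at 0.57 on each array, 72681–72691, at 0.13 and 1.84, 133069–133079, at 0.77 and 0.85, and 142018–142028, at 0.79 and 0.26. By probe number, the stretch up to probe 14699 held 24 of the selected units among 249 (9.64%), and the other 9 stretches of that length held 5 to 15 each (1.86 to 6.05%). In that first stretch 14.9% of units reached 0.5 in sen1Δ, against 7.86% in the rest. This was not particular to sen1Δ: on the rrp6Δ arrays the shares were 21.7 and 25.7%, against 16.2 and 19.8%. On the mtl1-17 arrays they were 8.84 and 8.03%, against 5.63 and 5.15%. The share was lower in that stretch only on cid14Δ replicate 1 (11.6%, against 12.2%) and iss10Δ replicate 2 (8.03%, against 11.2%).

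Some selected units were next to each other on a strand, with no other unit between. There were 9 such pairs: 3515–3537 with 3563–3679, 4395–4439 with 4463–4485, 9355–9371 with 9413–9449, 13567–13581 with 13611–13627, 42547–42559 with 42579–42605, 93855–93895 with 93905–93923, 119981–119999 with 120003–120019, 143931–143947 with 143957–143975, and 13246–13296 with 13302–13318. In 4 of the pairs only 1 to 4 probes lay between them. Neighbours could differ in other mutants: units 3515–3537 and 3563–3679, both raised in sen1Δ (means 0.78 and 1.17), differed by up to 3.27 in another mutant. On the other strand 45 units overlapped a unit (41.7%, against 40.1% of all units), and 6 of them, in 3 pairs, overlapped another selected unit: 73695–73773 with 73748–73776, 120003–120019 with 120004–120034, and 128128–128186 with 128181–128197. Of the 52 overlapping units 21 were below 0 in sen1Δ and 11 reached 0.5, of which 6 were selected units, at 0.5 or more by the rule (8.54% of all units reached 0.5).

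A set of 3 units that do not overlap had nearly the same ratio in every mutant and was noticed after the values were seen. Units 40780–40812, 41377–41409 and 141705–141733, of 17, 17 and 15 probes, were at 0.77 to 0.81 in sen1Δ, 0.48 to 0.55 in cid14Δ, -0.65 to -0.58 in red1Δ, -0.995 to -0.975 in mtl1-17 and -0.78 to -0.62 in mmi1Δ mei4-P572. Their control signals were also close, between 8.49 and 8.79. Probe sequences are not in the files used here, so whether these units share sequence was not tested.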

How the data were processed

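Labelled cDNA of mutant (Cy5) and control (Cy3) was hybridised by the authors to custom Agilent tiling arrays whose probes alternate between strands, and the deposited scanner files hold processed signal intensity per channel from Agilent Feature Extraction 10.7.3.1 (10.7.1.1 for rrp6Δ replicate 1), background-subtracted and dye-normalized. The deposited log10 ratio column and the deposited log2 value table of the series served as alternatives. The table's nonzero values match the scanner ratios except for sen1Δ replicate 2, where 10.8% of them lay within 0.01 (cause not known). Depending on the array, 49.4 to 87.9% of the table's values were exactly 0, against 6.4 to 30.4% in the log ratio column. The table's direction and scale were taken from the comparison of nonzero values. By the study's methods the dense part covers chromosome 2 and the start of chromosome 3; the genome build is not given in the sources used here, and positions of single probes were not used. Log2 ratios of the processed signals were averaged per unit and centred on the mean over units of each array. All 16 arrays, grouped by the labels into 9 mutants, were fitted with limma 3.58.1 (R 4.3.3; lmFit, eBayes, 7 residual and 6.3 prior degrees of freedom) against 0, two-sided, with Benjamini-Hochberg adjustment over 9147 features of each mutant; with 1 or 2 arrays a mutant, their number limits the precision. The fit was first tested on simulated data. Members and lists were chosen with earlier results of these data known. The text names the 20 units with the highest sen1Δ ratio among those at 0.5 on both arrays (in part as ranges), up to 5 units called in each other mutant and direction, those at the thresholds, the extremes in length and signal, and neighbouring pairs.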

Additional observations from a re-analysis of the deposited data

Results flagged for a closer look

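In 2 units the difference between red1Δ and mtl1-17 was itself past the threshold in limma (adjusted p over all 9147 features) and both arrays of each mutant went opposite ways. Unit 113438–113464 was at 0.03 and 0.36 in red1Δ and at -2.56 and -1.80 in mtl1-17, a difference of 2.37 (adjusted p = 0.0031). Unit 113651–113733 was at 0.11 and 0.42 in red1Δ and at -1.50 and -1.31 in mtl1-17, a difference of 1.67 (adjusted p = 0.00237). The mutants have different control strains and growth temperatures, which cannot be told apart from the mutation.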

How the results depend on the processing

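The rule gave 85 to 109 units, 72 to 108 of them shared, under 7 alternatives, but 41 (38 shared) with arrays centred on the median of all tiling probes and 26 (23 shared) with normexp and array medians, which lower all units in sen1Δ to a median of -0.28 and -0.33. Leaving out 1 array gave 91 to 222 units, 222 without sen1Δ replicate 2 (96 shared) and 91 without replicate 1 (66 shared). With the tiling-probe median and with normexp and array medians the sen1Δ median of the 108 units was 0.41 and 0.28, though it stood 0.69 and 0.61 above all units; leaving out an array gave 0.59 to 0.84. The mtl1-17 median became -0.27 with normexp and array medians (all units -0.14); single arrays gave -0.23 to -0.05, and -0.505 to -0.185 in red1Δ. In the order no centring, tiling-probe median, normexp with loess, normexp with array median, log ratio column and series table, the sen1Δ median was 0.43, 0.26, 0.22, 0.26, 0.39 and 0.27 downstream, 0.15, -0.0179 (reversed), 0.12, 0.12, 0.15 and 0.0775 upstream antisense, and 0.23, 0.0594, 0.14, 0.13, 0.22 and 0.15 antisense. Probe medians gave 0.33 upstream antisense and 0.42 antisense, and well-measured probes 0.28 antisense; single arrays gave 0.52 to 0.59, 0.22 to 0.31 and 0.29 to 0.30. No centring and the tiling-probe median shift every feature of an array by the same amount, so they leave differences from all units or stretches unchanged. The cause of the other moves was not tested.

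Calls lower in red1Δ (37) were 17 to 40 without 1 array (6.26 to 17.8% of all units), 19 with slides as fixed effects (5.35%) and 13 with an absolute log2 ratio of at least 1 (3.66%); those lower in mtl1-17 (20) were 9 to 20 (1.81 to 5.43%), 13 (3.46%) and 5 (1.18%). The 3 calls higher in red1Δ became 1 with normexp and array medians, probe medians, slides as fixed effects or the ratio of 1, and 1 to 3 without an array. The main fit treated arrays as independent. Of 21 pairs of mutants 10 had deviations of replicate 1 correlated over 0.1 (-0.57 to 0.70), highest for red1Δ with iss10Δ. A replicate block gave 38 lower and 3 higher in red1Δ and 20 lower in mtl1-17. Arrays of a slide had a consensus correlation of 0.351. Slides as random blocks gave 38 lower and 3 higher in red1Δ and 21 lower in mtl1-17. Centring on the tiling-probe median changed the share of red1Δ calls over all units that were higher from 52.0% to 74.7%, with 4 selected units higher and 25 lower; for mtl1-17 that share went from 51.2% to 34.1% without centring and to 17.7% with normexp and array medians (0 selected units higher, 21 and 30 lower). Of 346 refits of named units in the tested mutants, 322 kept their call and 0 reversed. These units were named for the lowest adjusted p, and several of the refits leave the ratio itself unchanged, so nothing is read from this tally. At most 2 arrays a mutant limit the precision.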
